A study of Rattus norvegicus with 6 samples.

Results

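The 9 genes Gnat2, Gngt1, Pdc, Pde6c, Pde6h, Grk1, Sag, Rgs9 and Rcvrn encode proteins of the phototransduction cascade, the signalling chain by which retinal photoreceptors turn light into an electrical response. They were taken by symbol from the annotation of the array. Every probe with 1 of these symbols as its single gene was kept, which gave 11 probes for 9 genes, out of 35129 probes and 12199 named genes. Each gene had 1 probe except Rgs9, which had 3. Tissues were taken from adult male Sprague-Dawley rats described as normal, with no transgene or treatment. The pineal gland was measured on 2 arrays. Ependyma of the third ventricle, subcommissural organ and subfornical organ had 1 array each, made from a pool of 2, and total brain had 1 array of a pooled reference sample. The cells were cut out by laser microdissection, and 3 ng of RNA went through 2 rounds of amplification before hybridisation to 1-colour arrays. Whether the pineal gland pair stands for separate animals is not in the labels, so the p-values reflect the spread between those 2 arrays alone, and that spread may be technical.

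In a photoreceptor, a light-activated opsin switches on the G protein transducin, whose alpha subunit releases the brake on phosphodiesterase 6. This enzyme breaks down cyclic GMP, and cyclic nucleotide-gated channels close. The response ends when rhodopsin kinase phosphorylates the opsin, arrestin binds it, RGS9 speeds the GTPase of transducin, and guanylate cyclase restores cyclic GMP under the control of calcium sensors. The pineal gland makes melatonin at night. Its main cell, the pinealocyte, shares many photoreceptor genes with the retina. The mammalian gland nevertheless does not respond to light directly and is driven by sympathetic nerves.

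The values were intensities on a linear scale in arbitrary units. As deposited, the 6 arrays had like medians, 1.05 on each pineal gland array and between 1.04 and 1.07 on the others. Their 75th percentiles differed more, at 5.78 and 4.90 on the pineal gland arrays and 7.93 in total brain. In the other dissected structures the 75th percentile was between 5.77 and 6.31. Values under 0.142 were raised to it before log2 was taken. To be tested in a comparison, a gene had to reach 1.05, the median over all arrays, in the brighter of its tissues, and is then called measured. Where the lower side was under 1.05, the fold was computed against 1.05 and is written as "at least". The pineal gland label matched its defining markers. Of the pinealocyte markers, 6 of 7 measured genes were higher in the pineal gland than in total brain, among them Tph1 and Asmt, enzymes of melatonin synthesis. The neuron markers had 6 of 8 lower, the oligodendrocyte markers 9 of 9, the astrocyte markers 7 of 8, the microglia markers 4 of 7 and the motile cilia markers 4 of 5, with none of these lists holding a higher gene. The list of striatal neuron markers had 1 gene higher and 4 lower of 7, the choroid plexus list 3 higher of 5, the habenula list 2 higher and 2 lower of 5, and the subcommissural organ list 1 higher of 1. Beside these counts, 7.72% of all measured genes were higher in the pineal gland than in total brain and 16.3% lower. In bulk tissue, fewer cells of a type and less RNA per cell cannot be told apart.

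Against total brain, 8 of the 9 genes were higher in the pineal gland, none was lower and Rcvrn was not called (limma, two-sided, Benjamini-Hochberg over all 9077 measured genes, adjusted p under 0.05). Over all measured genes, 7.72% were called higher and 16.3% lower. The median log2 difference of the 9 genes was 7.72, beside -0.45 over all measured genes. Against the ependyma, 8 genes were higher and 1, Pde6h, was lower, where 7.32% of all genes were higher and 13.0% lower. Against the subcommissural organ 7 genes were higher and 2 were not called, with 9.34% of all genes higher and 11.6% lower. Against the subfornical organ 7 genes were again higher and 2 were not called, with 7.05% of all genes higher and 13.8% lower. Medians of the 9 genes were 7.29, 6.79 and 8.25 in these 3 comparisons, beside -0.11, -0.20 and -0.25 over all genes. With values under 1.05 raised to 1.05, the medians of the 9 genes were 6.80 against total brain, 7.16 against the ependyma, 6.18 against the subcommissural organ and 7.47 against the subfornical organ. The 4 comparisons share the pineal gland arrays and are not independent of each other.

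**Figure D1:**
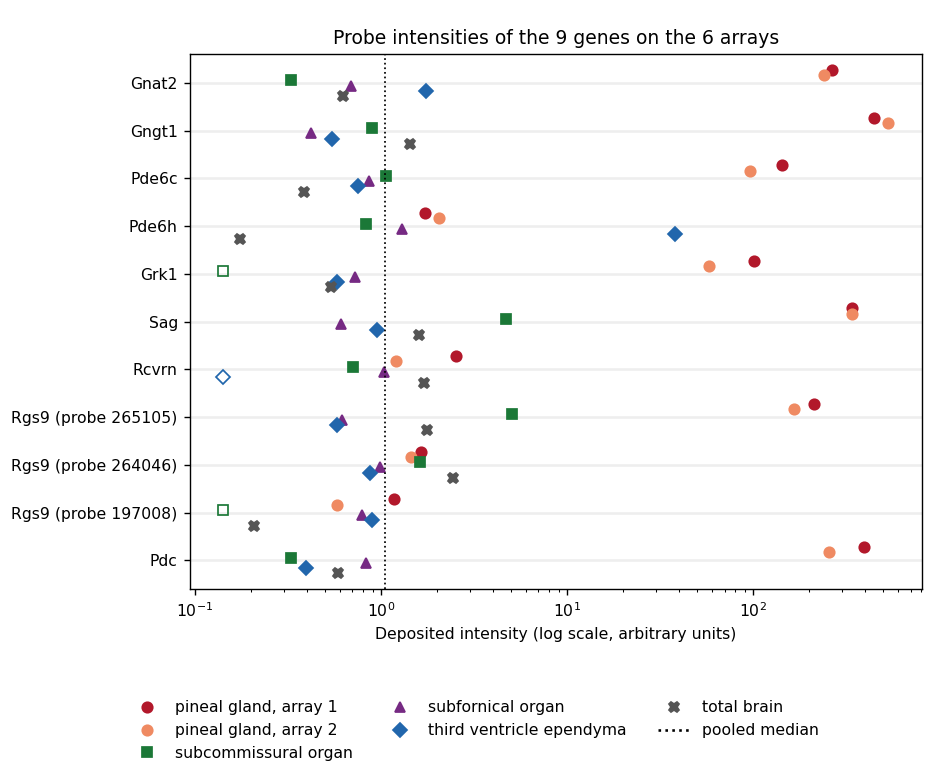
Deposited intensity of each of the 11 probes on the 6 arrays, on a log axis, with 1 point per array and a dotted line at 1.05, the median over all arrays. Open symbols are values under 0.142, drawn there. In 7 genes both pineal gland arrays lie between 57.6 and 531 and every other array at or below 5.06, while Pde6h is highest in the ependyma and Rcvrn and the other 2 Rgs9 probes stay low on all arrays.

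The same 7 genes, Gnat2, Gngt1, Pdc, Pde6c, Grk1, Sag and Rgs9, were called higher in the pineal gland in all 4 comparisons. Their 14 pineal gland values lay between 57.6 and 531, and their 28 values elsewhere reached 5.06 at most, with 21 of the 28 under 1.05. Taken singly, the 4 comparisons called 7.05% to 9.34% of all measured genes higher. The share of all genes called higher in all 4, or with such a gap in values, was not counted. For the 7 genes, adjusted p was at most 2.0e-11 in limma. This small value rests on 1 spread shared by all genes (SE 0.72 to 0.73 on the log2 scale), estimated from the pineal pair alone, and on the assumption that the single arrays vary as the pair did. With each probe fitted on its own, the adjusted p of the brightest probes of these 7 genes was between 8.5e-05 and 0.0018 in limma. The other fitted probe of Rgs9, 264046, was not called in any comparison (adjusted p 0.53 to 0.98 in limma). With all values under 1.05 raised to 1.05, limma called no gene of the array in any of the 4 comparisons, although 2474 of 9077 genes had an unadjusted p under 0.05 against total brain. The adjusted p of the 7 genes was then 0.090 to 0.14, and at most 0.013 in the other alternatives with a test. Their log2 differences with that floor were 5.21 to 8.85.

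Transducin is a heterotrimer, and the set holds its cone alpha subunit Gnat2 and its rod gamma subunit Gngt1. Gnat2 had intensities of 263.6 and 238.4 on the pineal gland arrays, 0.326 in the subcommissural organ, 0.686 in the subfornical organ, 1.75 in the ependyma and 0.624 in total brain. The pineal gland stood alone, and only the ependyma among the rest was above 1.05. The log2 difference to total brain was 8.65 ± 0.73 (SE, n = 2 and 1), at least 239-fold. Against the ependyma, where both sides were measured, Gnat2 was 143-fold higher.

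Gngt1 had 444.4 and 530.7 in the pineal gland, 0.895 in the subcommissural organ, 0.423 in the subfornical organ, 0.543 in the ependyma and 1.42 in total brain. It was 341-fold higher than in total brain (log2 difference 8.41 ± 0.73) and at least 462-fold higher than in each of the other structures. Of the tissues other than the pineal gland, only total brain was above 1.05.

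Phosducin, encoded by Pdc, binds the beta and gamma subunits of transducin and so limits the re-forming of the trimer. It is abundant in both retina and pineal gland. Its intensities were 391.8 and 256.1 in the pineal gland, 0.329 in the subcommissural organ, 0.826 in the subfornical organ, 0.394 in the ependyma and 0.586 in total brain. All 4 other tissues lay under 1.05, so they have no order among themselves. Pdc was at least 301-fold higher in the pineal gland than in each of them, and its log2 difference to total brain was 9.08 ± 0.73.

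Pdc and Gngt1 are also the members whose promoter window held a recognition sequence of CRX and OTX2, homeobox factors of photoreceptors and pinealocytes. RefSeq windows of 300 bases, from 250 bases before to 50 after the gene's start on build GRCr8, were at hand for 5 of the 9 genes: Sag, Pdc, Gngt1, Pde6h and Rgs9. They were searched on both strands for TAATCC and TAATCT, which differ in their last base, for TGACG, the core of a cyclic AMP response element, and for CACGTG, an E-box. No motif of these contains another. Over all 33469 windows of this length, TAATCC was found in 7.17%, TAATCT in 8.70%, either of them in 15.2%, TGACG in 21.2% and CACGTG in 6.42%. Pdc held TAATCT beginning 23 bases after the start. Gngt1 held 3 matches, all on the opposite strand: TAATCT beginning 244 bases before and 9 bases after the start, and TAATCC beginning 220 bases before it. The windows of Sag, Pde6h and Rgs9 held neither form, and none of the 5 held TGACG or CACGTG. Both sequences are shown because these genes were higher in the pineal gland in all 4 comparisons and their windows hold matches. The capitals mark the matches, which on the opposite strand read AGATTA and GGATTA. Pdc lies at chr13:64908057-64908356 on the plus strand and Gngt1 at chr4:32960695-32960994 on the plus strand, each written from 5′ to 3′ in the direction of the gene.
Pdc: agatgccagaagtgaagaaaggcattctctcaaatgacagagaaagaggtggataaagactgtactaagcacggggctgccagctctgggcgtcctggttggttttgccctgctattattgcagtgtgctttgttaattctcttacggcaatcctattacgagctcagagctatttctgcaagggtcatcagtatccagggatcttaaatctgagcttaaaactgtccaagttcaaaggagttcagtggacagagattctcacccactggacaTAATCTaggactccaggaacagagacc
Gngt1: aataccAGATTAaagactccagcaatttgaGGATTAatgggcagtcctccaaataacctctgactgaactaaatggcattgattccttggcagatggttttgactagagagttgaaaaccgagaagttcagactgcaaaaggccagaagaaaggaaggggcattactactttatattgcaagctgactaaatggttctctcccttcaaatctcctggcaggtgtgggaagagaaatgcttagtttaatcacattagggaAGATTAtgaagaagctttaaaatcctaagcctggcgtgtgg

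These matches are letters in a window and were not measured as binding. Otx2 itself had 213.6 and 140.3 in the pineal gland, 124.1 in the subcommissural organ, 42.2 in the subfornical organ, 23.7 in the ependyma and 19.4 in total brain, so its probe was bright in the pineal gland and in the subcommissural organ. Its log2 difference between these 2 was 0.48 ± 0.72 (adjusted p = 0.74 in limma), with 1 array of the subcommissural organ. The differences of Pdc and Gngt1 between the same tissues were 9.91 and 9.08. Crx had 2.34 and 1.75 in the pineal gland and 0.952 in total brain, and was not called (adjusted p = 0.31 in limma). Whether CRX or OTX2 acts on Pdc or Gngt1 was not tested.

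Phosphodiesterase 6, the effector, is represented by Pde6c, the catalytic subunit of cones, and Pde6h, the inhibitory gamma subunit of cones. Pde6c had 143.1 and 96.1 in the pineal gland, 1.06 in the subcommissural organ, 0.861 in the subfornical organ, 0.750 in the ependyma and 0.384 in total brain. It was at least 112-fold higher than in total brain (log2 difference 8.26 ± 0.73), and 111-fold higher than in the subcommissural organ, the highest of the other tissues.

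Pde6h, its inhibitory partner, did not have the pineal pattern. Its probe read 1.72 and 2.05 in the pineal gland, 0.831 in the subcommissural organ, 1.30 in the subfornical organ, 38.2 in the ependyma and 0.174 in total brain. The ependyma stood apart from every other array, and the pineal gland was close to background. Pde6h was 20.3-fold lower in the pineal gland than in the ependyma (log2 difference -4.35 ± 0.72, adjusted p = 4.7e-08 in limma). With values under 1.05 raised to 1.05 this adjusted p was 0.12, and in the other alternatives with a test it was at most 0.016. The higher call against total brain had a log2 difference of 3.43 ± 0.73, but it came from the low total brain value and amounted to at least 1.79-fold. Against the subcommissural and subfornical organs the log2 differences were 1.18 ± 0.72 and 0.53 ± 0.73 and were not called (adjusted p = 0.28 and 0.71 in limma).

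The ependyma value of Pde6h was at least 36.3-fold above total brain, with 1 array on each side and therefore no test. Across the 9 genes and the 3 structures other than the pineal gland, 2 of the values that were measured (brighter side at 1.05 or more) were 4-fold or more above total brain, both of Pde6h. Without that filter they were 3, the added one being Pde6h in the subcommissural organ, where both sides were under 1.05. The other was the subfornical organ, at 7.46-fold from the floored values but only at least 1.23-fold against 1.05. Over all measured genes 7.47% were 4-fold or more above total brain in the ependyma, 7.23% in the subfornical organ and 8.76% in the subcommissural organ. Motile cilia, which mark ependymal cells, had a summed intensity over 7 genes of 1338 in the ependyma, 1189 in the subcommissural organ, 292 in the subfornical organ and 52.3 in total brain. Beside these sums, Pde6h read 38.2 in the ependyma and 0.831 in the subcommissural organ, with 1 array of each. The part of ciliated or other cells of the pool in the Pde6h value was not tested.

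**Figure D2:**
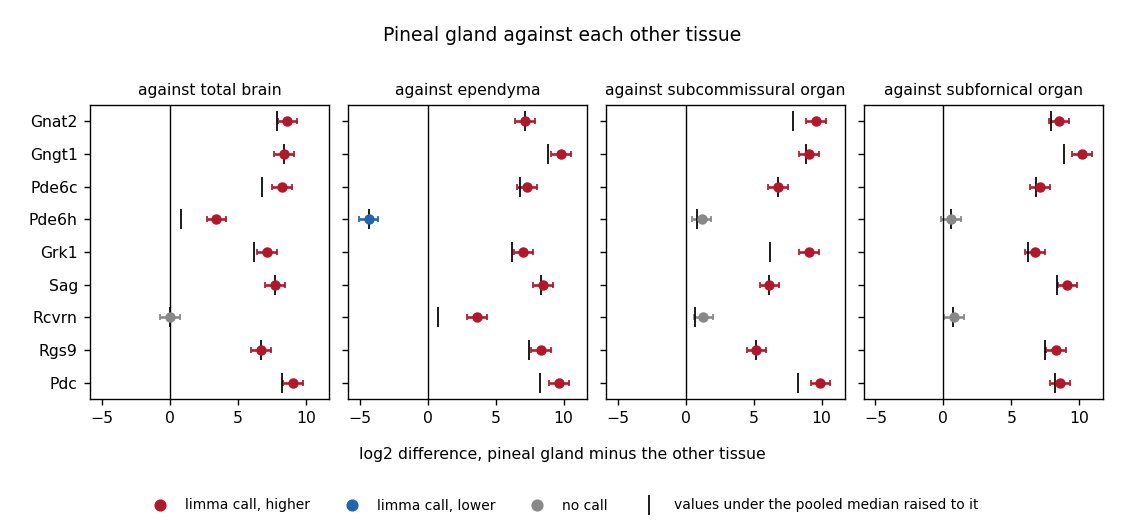
The log2 difference between the pineal gland (mean of 2 arrays) and each other tissue (1 array) for the 9 genes, with the standard error of limma as a bar and a black tick where values under 1.05 are raised to 1.05. In 7 genes the difference is between 5.21 and 10.17 in all 4 panels, Pde6h is lower than in the ependyma at -4.35, and Rcvrn lies at 0.03 against total brain.

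In the set, 4 proteins shut the response off or control its shut-off. Rhodopsin kinase, encoded by Grk1, phosphorylates the activated opsin. Its probe read 100.7 and 57.6 in the pineal gland, 0.0927 in the subcommissural organ, 0.721 in the subfornical organ, 0.579 in the ependyma and 0.536 in total brain. All other tissues were under 1.05 and the pineal gland was at least 72.5-fold above each (log2 difference to total brain 7.15 ± 0.73). Among the 7 genes, Grk1 had the widest gap within the pineal pair, 0.80 on the log2 scale.

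Sag encodes the rod arrestin, which caps the phosphorylated opsin. It had 338.2 and 337.7 on the pineal gland arrays, the closest pair of the set, 4.71 in the subcommissural organ, 0.609 in the subfornical organ, 0.946 in the ependyma and 1.61 in total brain. The pineal gland was 210-fold above total brain (log2 difference 7.72 ± 0.73, adjusted p = 1.1e-23 in limma) and 71.7-fold above the subcommissural organ.

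Rgs9 encodes the GTPase-accelerating protein that resets transducin. It is made in a retinal form and in a longer form known from the striatum, and the sources used here do not say which form each probe reads. Probe 265105 had 210.7 and 165.7 in the pineal gland, 5.06 in the subcommissural organ, 0.614 in the subfornical organ, 0.577 in the ependyma and 1.76 in total brain. It was 106-fold higher in the pineal gland than in total brain (log2 difference 6.73 ± 0.73) and 36.9-fold higher than in the subcommissural organ, the smallest of the 28 differences of the 7 genes.

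The other probes of Rgs9 did not show this. Probe 264046 had 1.65 and 1.45 in the pineal gland, 1.61 in the subcommissural organ, 0.982 in the subfornical organ, 0.869 in the ependyma and 2.45 in total brain. Probe 197008 had 1.17 and 0.581 in the pineal gland, -0.0675 in the subcommissural organ, 0.792 in the subfornical organ, 0.897 in the ependyma and 0.208 in total brain. Both stayed near background on all arrays. Fitted on its own, probe 264046 differed from total brain by -0.66 ± 0.67 on the log2 scale and was not called in any comparison (adjusted p = 0.56 against total brain in limma), and probe 197008 did not reach the level of a measured probe there. The probes of Rgs9 therefore disagree, and the values of the gene given here are those of its brightest probe. With the log2 values of the 3 probes averaged, the difference to total brain was 2.69 and was still called (adjusted p = 0.0009 in limma, and at most 0.013 in the other alternatives with a test apart from the raised floor). The striatal neuron markers were mixed in total brain. Drd2, the dopamine D2 receptor, read 21.8 there, but Drd1 read 1.40. The probes of Adora2a read 0.598 and 0.122 there, and those of Gpr6 0.926 and 0.553. Of 7 measured genes of this list, 4 were lower in the pineal gland than in total brain and 2 were not called. The remaining gene, Penk, was higher, at 205.1 and 148.5 against 46.9. The part of striatal cells in the total brain values of Rgs9 was not tested.

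In both Sag and Rgs9 the highest value outside the pineal gland was that of the subcommissural organ. These levels were 2.93-fold and 2.88-fold above total brain, under the 4-fold that was counted and with 1 array on each side. The pinealocyte list had a summed intensity over 8 genes of 998.6 and 706.3 in the pineal gland, 130.0 in the subcommissural organ, 58.9 in the subfornical organ, 31.6 in the ependyma and 26.7 in total brain. Most of the sum in the subcommissural organ was Otx2, while Tph1 read 1.25 and Asmt 0.747 there, which is 350.7-fold and at least 72.6-fold under the pineal gland. The part of pineal cells in the subcommissural organ values of Sag and Rgs9 was not tested.

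Recoverin, encoded by Rcvrn, is a calcium sensor that holds rhodopsin kinase inactive in the dark. Its probe read 2.51 and 1.20 in the pineal gland, 0.705 in the subcommissural organ, 1.03 in the subfornical organ, 0.069 in the ependyma and 1.70 in total brain. Total brain lay between the 2 pineal gland arrays, and the difference was 0.03 ± 0.73 on the log2 scale (adjusted p = 0.99 in limma). Recoverin was called higher than in the ependyma (log2 difference 3.61 ± 0.72), which rests on the low ependyma value and amounts to at least 1.65-fold. The differences to the subcommissural and subfornical organs, 1.30 ± 0.72 and 0.75 ± 0.73, were not called (adjusted p = 0.22 and 0.56 in limma). A single probe near background does not show that the gene was silent.

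**Figure D3:**
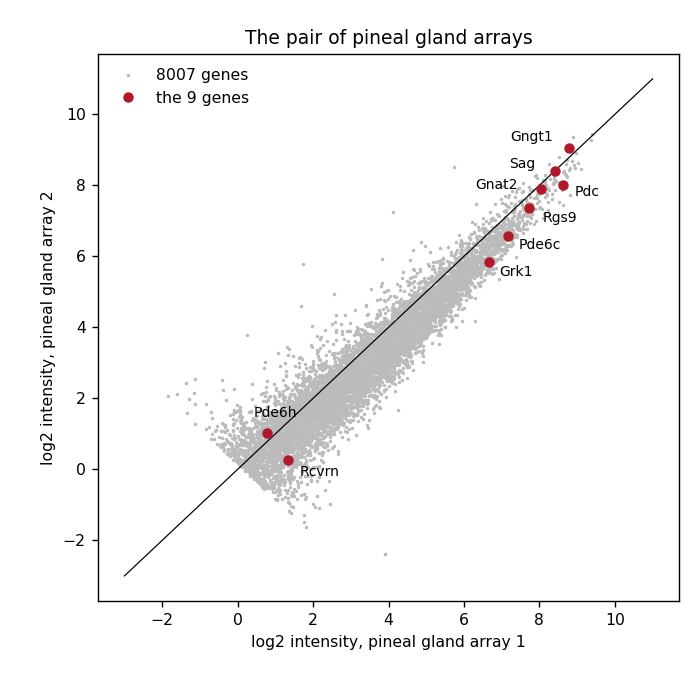
The log2 intensity of 8007 genes with a pineal gland mean of at least 1.05 on array 1 (horizontal) and array 2 (vertical), with the line of equality and the 9 genes in red. Most genes lie below the line, and the 9 genes follow the cloud, 7 of them higher on array 1.

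The 9 genes followed the general shift between the pineal gland arrays. Array 1 was higher for 7 of the 9, with log2 differences from -0.26 to 1.06 and a median of 0.35. Over the 8007 genes whose pineal mean reached 1.05, the median difference was 0.42 (SD 0.65), and 77.7% were higher on array 1. A 4-fold gap between the arrays was seen in 1.12% of these genes and in none of the 9.

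The shapes of the 9 profiles were compared by the root mean square (RMS) difference of their log2 values over the 6 arrays, each profile centred on its mean. Among the 21 pairs of the 7 pineal-high genes it was 0.46 to 1.80, and Sag and Rgs9 were the closest pair. Rcvrn lay 2.95 to 3.88 and Pde6h 4.02 to 5.10 from these 7. Of the 28 values of the 7 genes outside the pineal gland, 21 were under 1.05, so these distances, and those to other genes, are set in large part by differences among values near background. The 7 genes were grouped by their calls on these same arrays, so their closeness follows in part from that grouping. The same holds for the larger distances of Rcvrn and Pde6h. For Rgs9 only its brightest probe was used, which the other probes do not match. All these distances describe shape on 6 arrays and carry no test.

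Among 6736 genes that reached the 75th percentile in at least 1 tissue, the nearest to Gngt1 were Tph1 (RMS difference 0.36), tryptophan hydroxylase of the melatonin pathway, and Aipl1 (0.53), a chaperone of phosphodiesterase 6. Asmt, which makes melatonin in its last step, was nearest to Pde6c (0.41), Sag (0.74) and Rgs9 (0.98). For Pdc they were Aipl1 (0.66) and Fabp12 (0.88), and for Grk1 Ppef2 (0.57), a photoreceptor phosphatase, and Neurod4 (0.74), a transcription factor. Gnat2 was nearest to Hsbp1l1 (0.56) and Prph2 (0.64), a protein of the outer segment discs, and all 3 were above 1.05 in the ependyma as well. The second neighbours of Sag, Pde6c and Rgs9 were Tph1 (0.82), Krt15 (0.52) and Gp2 (1.07).

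Prph2 had 365.9 and 266.2 in the pineal gland, 0.432 in the subcommissural organ, 0.738 in the subfornical organ, 2.73 in the ependyma and 0.255 in total brain. Pde6h was nearest to Apcs and Mia (0.79 each), which encode secreted proteins and were at 16.6 and 23.6 in the ependyma and at 2.02 or below on every other array. Rcvrn was nearest to Slc43a2 (0.35), an amino acid transporter, and C19h16orf87 (0.39), but its own values in the ependyma, subcommissural organ and subfornical organ were under 1.05 and have no order, so these neighbours rest on values near background.

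Of the 27 other genes of the phototransduction pathway, 22 had a probe and 17 were measured against total brain, where 10 were higher in the pineal gland, 1 was lower and 6 were not called. Their median log2 difference was 3.70, or 2.53 with values under 1.05 raised to 1.05, beside -0.45 over all genes as measured. Of all measured genes, 7.72% were higher and 16.3% lower. Against the ependyma 9 of 18 measured genes were higher, and against the subcommissural and subfornical organs 10 of 18 each, with none lower. Aipl1, Arr3, Gnb3, Gngt2, Guca1a, Guca1b, Opn1sw and Unc119 were higher in all 4. In the alternative with values under 1.05 raised to 1.05, none of the 10 was called against total brain, as no gene of the array was.

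Aipl1 had 438.6 and 342.9 in the pineal gland and 0.547 in total brain, at least 369-fold, although its probe 255062 was lower in the pineal gland than in total brain (3.44 and 6.21 against 31.0) and its remaining probe was under 1.05 in both. The cone transducin subunits Gngt2, the gamma, and Gnb3, the beta, were high in the gland like Gnat2. Gngt2 had 366.2 and 443.5 against 1.42 in total brain, 284-fold, with its dimmer probe at 1.35 and 2.41. Gnb3 had 421.0 and 390.9 against 7.36, 55.1-fold. Guca1b and Guca1a, the calcium sensors of guanylate cyclase, were 82.7-fold and 62.7-fold higher.

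Cone arrestin, Arr3, had 5.01 and 7.34 in the pineal gland and 0.0608 in total brain, at least 5.77-fold. The short-wave cone opsin Opn1sw had 59.9 and 38.7 against 2.77, 17.4-fold. Cngb1, the beta subunit of the rod channel, was at least 10.5-fold higher than in total brain, but it also had 5.78 in the ependyma and was not called against it (log2 difference 0.93 ± 0.72, adjusted p = 0.46 in limma). Unc119, a carrier of transducin, was 6.71-fold higher. The rod transducin alpha subunit Gnat1 was called, but with 2.13 and 1.66 in the pineal gland it amounted to at least 1.79-fold and was not called in any of the other 3 comparisons.

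Slc24a2, the cone sodium-calcium exchanger that is also made by neurons, was 8.34-fold lower than in total brain. Gnb1, the rod beta subunit found in most cells, had 153.8 and 110.0 in the pineal gland and 158.9 in total brain and was not called, and neither were Gnb5, Pde6b, Pde6d, Slc24a1 and Slc24a4. Pde6b, a rod catalytic subunit, had 4.64 and 2.73 against 2.16 in total brain. Slc24a1 had 4 probes that disagreed: its brightest was level at 3.08 and 3.42 against 3.15, and another had 5.996 and 3.151 against 0.605. Cnga1, Cnga3, Gucy2e, Gucy2f and Pde6a had a probe but were not measured against total brain, since neither side reached 1.05.

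**Figure D4:**
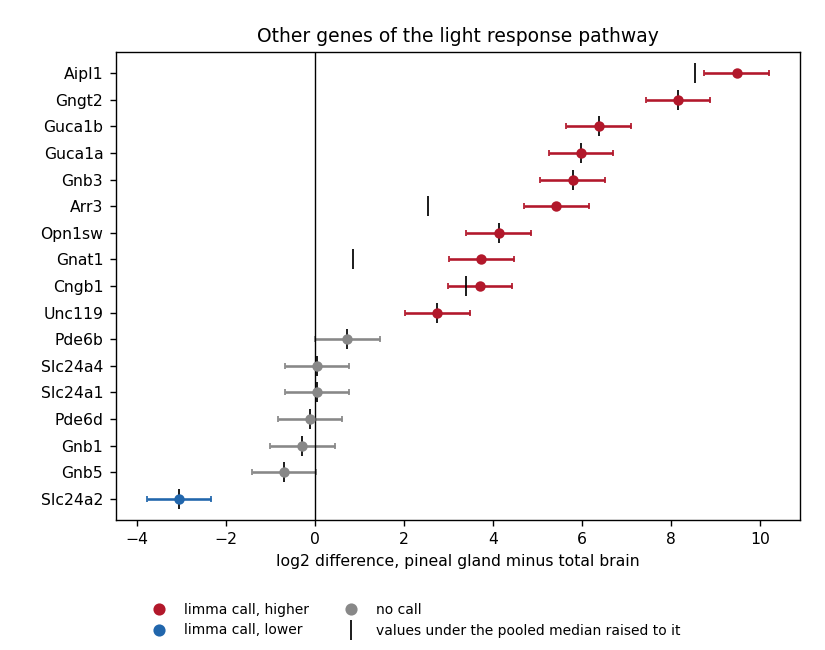
The log2 difference between the pineal gland (mean of 2 arrays) and total brain (1 array) for the 17 measured genes of the pathway outside the set, with the standard error of limma as a bar and a black tick where values under 1.05 are raised to 1.05. The 10 genes called higher run from Unc119 at 2.75 to Aipl1 at 9.47, and Slc24a2 is lower at -3.06.

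Either CRX and OTX form was found in the RefSeq windows of 8 of 20 of these pathway genes, Opn1sw, Pde6a, Cnga1, Cngb1, Gucy2f, Guca1a, Slc24a4 and Aipl1, where 15.2% of all windows held one. Some of these, such as Aipl1, were bright in the pineal gland and others, such as Pde6a, Cnga1 and Gucy2f, were near background there.

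Among nonvisual opsins, melanopsin, Opn4, had 5.99 and 3.42 in the pineal gland and 1.05 in total brain, 4.30-fold higher (adjusted p = 0.019 in limma). It was also called against the subcommissural organ but not against the subfornical organ or the ependyma. Opn3 had 5.86 and 5.42 against 5.11 in total brain and Rgr 1.09 and 0.564 against 1.69, and neither was called. In the visual cycle, which regenerates the retinal chromophore, 9 of 12 genes had a probe. Of these, 1 of 6 measured genes was higher than in total brain, beside 7.72% of all measured genes. The higher gene was Rdh5, a retinol dehydrogenase, with 14.6 and 15.2 against 0.167 in total brain, at least 14.2-fold, and with 8.54 in the subcommissural organ.

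The relatives of the 9 genes, members of the same protein families that serve other receptors, had a different balance. Of 41 listed, 35 had a probe and 31 were measured against total brain, where 1 was higher, 14 were lower and 16 were not called. Over all measured genes, 7.72% were higher and 16.3% lower. The median log2 difference of the relatives was -1.50, beside -0.45 over all measured genes. With values under 1.05 raised to 1.05, that of the relatives was -1.21. The 1 higher relative was Grk4, at 1.33 and 1.89 in the pineal gland, which amounted to at least 1.51-fold. Of the G protein alpha subunits, Gnai2 had 26.7 and 16.0 in the pineal gland against 19.6 in total brain, and Gnao1 11.9 and 6.33 against 41.8. Of the gamma subunits, Gng13 had 24.4 and 42.7 against 27.9 in total brain and Gng10 27.3 and 18.9 against 32.2.

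Grk6, a receptor kinase found in many cells, had 19.6 and 13.1 against 37.0 in total brain, and Arrb1, a beta arrestin, 0.751 and 0.335 against 1.69. Of the other RGS proteins of this class, Rgs7 had 9.40 and 8.63 against 13.2. Of the phosphodiesterases, Pde10a had 55.6 and 31.2 against 96.4, and the phosducin-like Pdcl3 11.3 and 10.6 against 10.2. The recoverin family held Hpcal1, at 28.8 and 17.9 against 37.0, and Hpcal4, at 1.62 and 0.723 against 88.2, the latter 81.4-fold lower in the pineal gland. Of these named relatives only Grk4, Gnao1 and Hpcal4 were called against total brain.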

How the data were processed

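The authors deposited 1 linear intensity per probe and array, with its scanner, background correction and scaling not given in the sources used here. All 35129 deposited probes were read, and the array's annotation gave 16865 of them a single gene symbol. Missing values were coded -9999, and only the 34963 probes with a value on all 6 arrays were used. Values were floored at 0.142 (the pooled 5th percentile) and log2 was taken with no further scaling. Each gene was its brightest probe by the mean over the arrays. A mean per tissue was fitted with limma 3.58.1 (lmFit, eBayes) in R 4.3.3, on genes whose higher side reached 1.05, with Benjamini-Hochberg adjustment and a threshold of 0.05. The scripts were tested on simulated data, with 50 genes raised in the pineal gland by each of 4 log2 differences. The fit called 0 of 50 at a log2 difference of 1, 10 at 2, 34 at 3 and 50 at 5. There were 2 false calls. Only these raised genes differed in the simulation, so its limit does not carry over to the data, where many more genes were called. In the data the smallest called log2 difference was 1.83 against total brain and 1.85 against the ependyma. It was 1.835 against the subcommissural organ and 1.86 against the subfornical organ. With 1 SE shared by all genes of a comparison, smaller differences were not called. No detection call was used, and the number of arrays limits the precision.

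The 9 genes and the gene lists were chosen with earlier results of these data known. Every member was named with all its probes, any gene of the pathway, nonvisual opsin and visual cycle lists could be, and in each family of relatives the gene brightest in the pineal gland and the one brightest in total brain were. For each member the 2 nearest profiles were named. Alternatives changed the floor, the filter, the normalization, the probe rule, the prior and the replicates.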

Additional observations from a re-analysis of the deposited data

How the results depend on the processing

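Under quantile normalization, no filter, a floor at the pooled 10th percentile, the mean of a gene's probes or a prior with an intensity trend, all 36 member differences kept their direction and their side of the threshold, as did the 29 that a filter at the 75th percentile left. The floor at the 10th percentile was chosen after seeing the data, because the planned one at the 1st percentile lies below 0 and has no log2. With the floor at 1.05, 31 member differences lost their call. The members called higher numbered 0 in each of the 4 pineal gland comparisons, as did the other pathway genes against total brain, and 1 value instead of 2 was 4-fold or more above total brain. That number was also 1 with the filter at the 75th percentile, and 3 with no filter. Without either pineal gland array no residual degree of freedom is left, so the 72 such differences are values with no test. Among them, only the uncalled difference of Rcvrn to total brain changed sign, at -0.50 and 0.56. No paired analysis was possible because each tissue other than the pineal gland had 1 array and the labels do not link arrays to animals.

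Over all genes, the median log2 difference to total brain moved from -0.45 to 0.03 under quantile normalization. The share of higher genes among those called went from 32.2% to 47.3% against total brain, from 33.8% to 44.6% against the subfornical organ and from 44.6% to 54.0% against the subcommissural organ, where 727 genes were then higher and 619 lower, beside 826 and 1028. Without the filter, 348 genes were called higher and 670 lower against total brain, beside 701 and 1476. In the other comparisons the higher and lower counts without the filter were 267 and 464 (ependyma), 362 and 374 (subcommissural organ) and 222 and 413 (subfornical organ). Quantile normalization called 657 genes lower against total brain, 636 against the ependyma, 619 against the subcommissural organ and 590 against the subfornical organ. With the filter at the 75th percentile the higher genes numbered 387 against total brain and 530 against the subcommissural organ, beside 701 and 826. With every probe fitted on its own they were 1359 against total brain, 1002 against the ependyma and 1191 against the subfornical organ, of more probes than genes tested.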
